A study of Homo sapiens with 12 samples.

Results

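Regulated exocytosis genes of the synaptotagmin, syntaxin and vesicle fusion families were examined for H3K4me3, a histone mark of active promoters, in BON1 cells, an established line from a human pancreatic neuroendocrine tumor. The genes were chosen by symbol: all protein-coding synaptotagmins (SYT), syntaxins (STX), syntaxin-binding proteins (STXBP), vesicle-associated membrane proteins (VAMP) and complexins (CPLX), together with SNAP23, SNAP25, SNAP29, the UNC13 genes, CADPS and CADPS2. The rule found 59 genes among 20136 protein-coding genes and used no measured value. Control cells (BON1/TGL/pQ) were compared with BON1/TGL/HA-Bcl-xL cells, which overexpress a tagged form of Bcl-xL, a protein that blocks apoptosis. Both lines grew in medium with puromycin, carried the TGL element named in the labels, and were profiled by CUT&RUN from 500000 cells per condition. CUT&RUN releases and sequences the DNA next to an antibody-bound protein by means of a tethered nuclease. Background came from parallel reactions with a rabbit IgG raised against mouse. Each line had 3 labelled replicates per antibody. Used here were 5 H3K4me3 libraries (3 control, and replicates 2 and 3 of the HA-Bcl-xL line) with 6 IgG libraries (3 per line). The first H3K4me3 replicate of the HA-Bcl-xL line was not analysed here. Nothing in the labels says that replicates came from separate cultures or whether either line was 1 clone. The spread between replicates may therefore be technical.

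Neuroendocrine cells store hormones in dense-core vesicles and release them when calcium enters the cell. Release depends on SNARE proteins, which pull membranes together: a vesicle SNARE such as VAMP2 pairs with the plasma membrane SNAREs syntaxin-1A and SNAP-25. Munc18 proteins such as STXBP3 hold and template the syntaxins, UNC13 and CADPS proteins prime the vesicles, complexins clamp and assist the assembled complex, and synaptotagmins sense calcium. Other syntaxins and VAMPs do the same work between Golgi, endosomes and lysosomes in nearly every cell.

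The deposited files were lists of peaks, and a gene was counted as marked in a library when a peak overlapped the promoter, taken as the stretch within 1 kb of its most 5′ annotated end (its start). Peak presence and the number of bases under peaks were the measurements, and no level between peaks was used. A list of peaks from a cell population cannot tell fewer marked cells from less mark per cell. The H3K4me3 lists held 17711, 12159 and 10247 peaks in the control libraries and 16379 and 15497 in the HA-Bcl-xL libraries. The IgG lists differed between the lines, with 1699, 1674 and 2113 peaks in control and 268, 266 and 244 in HA-Bcl-xL libraries. Depth was not in the files as read totals, and was taken as the lowest background in each list, solved from the authors' fold and p, in fragments per base. It was 0.0659 to 0.0705 in 4 of the H3K4me3 libraries and 0.0478 in control replicate 3. That replicate was the shallowest of the 5 and had the fewest peaks. Among the other 4, depth did not follow peak number. Control replicate 1 had the lowest depth of these 4 (0.0659) but the most peaks (17711). Control replicate 2 had the highest (0.0705) but the fewest peaks of the 4 (12159). The part of depth in missing peaks was not tested. Of 17 neuroendocrine marker genes, 4 (CHGB, NEUROD1, SCG2 and SCG3) had promoter peaks in all 5 H3K4me3 libraries (23.5%, against 21.3% of all genes) and 9 in at least 1 (52.9%, against 48.2%), shares near those of all genes. SLC18A1 had a peak in 4 libraries, PCSK1 in 3, SYP in 2, CHGA in 1 and TPH1 in the 2 HA-Bcl-xL libraries alone, while CPE, DDC, ENO2, INSM1, PCSK2, SCG5 and SSTR2 had none. No promoter peak was found at 5 blood cell, 3 endothelial or 5 fibroblast markers. BCL2L1, which encodes Bcl-xL, had a promoter peak in 4 of the 5 libraries; a peak at the native gene does not check expression of the HA-tagged copy.

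The fusion genes were marked about as often as other genes. A promoter peak was present in 28, 21 and 14 of the 59 genes in control replicates 1 to 3 (47.5%, 35.6% and 23.7%) and in 24 and 23 in HA-Bcl-xL replicates 2 and 3 (40.7% and 39%). Over all protein-coding genes the shares in the same order were 40.4%, 32.4% and 28.2%, then 38.1% and 36.5%. The share among the fusion genes was above that of all genes in every library but control replicate 3, where it was below. In the 6 IgG libraries none of the 59 genes had a promoter peak, which allows a share of up to 5.08% in each (counting error only). Of all genes, 0.00497 to 0.253% had a promoter peak in each IgG library, and 0.785% had one in at least 1.

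**Figure D1:**
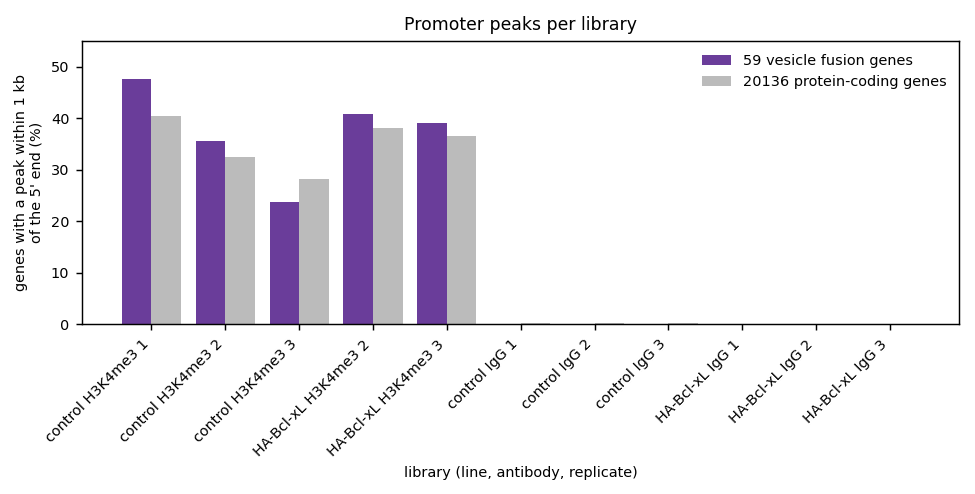
Bars give the percent of the 59 fusion genes (purple) and of the 20136 protein-coding genes (grey) with a peak within 1 kb of the start in each library. The purple bars run from 23.7 to 47.5% in the H3K4me3 libraries and are at 0 in all 6 IgG libraries.

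The mark was present in every library at 12 genes. They were VAMP8, STXBP3, STX5, STX4, STX10, SYT1, STXBP4, STX12, SYT11, STX17, SNAP29 and VAMP4, or 20.3% of the 59, against 21.3% of all genes. A peak in at least 1 library was found at 33 genes (55.9%, against 48.2% of all genes), and 26 had none. The other 21 were split among 4 libraries (5 genes), 3 libraries (5 genes), 2 libraries (4 genes) and 1 library (7 genes). All 5 of the genes with peaks in 4 libraries, STX16, SYT3, STX7, STX6 and VAMP1, lacked one only in control replicate 3. At STX16 that library had a peak of 120 bp just outside the window, beginning 1004 bp from the start. Within 2.5 kb of the start, 16 genes had a peak in all 5 libraries (27.1%, against 25.6% of all genes) and 36 in at least 1 (61%, against 53.5%).

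**Figure D2:**
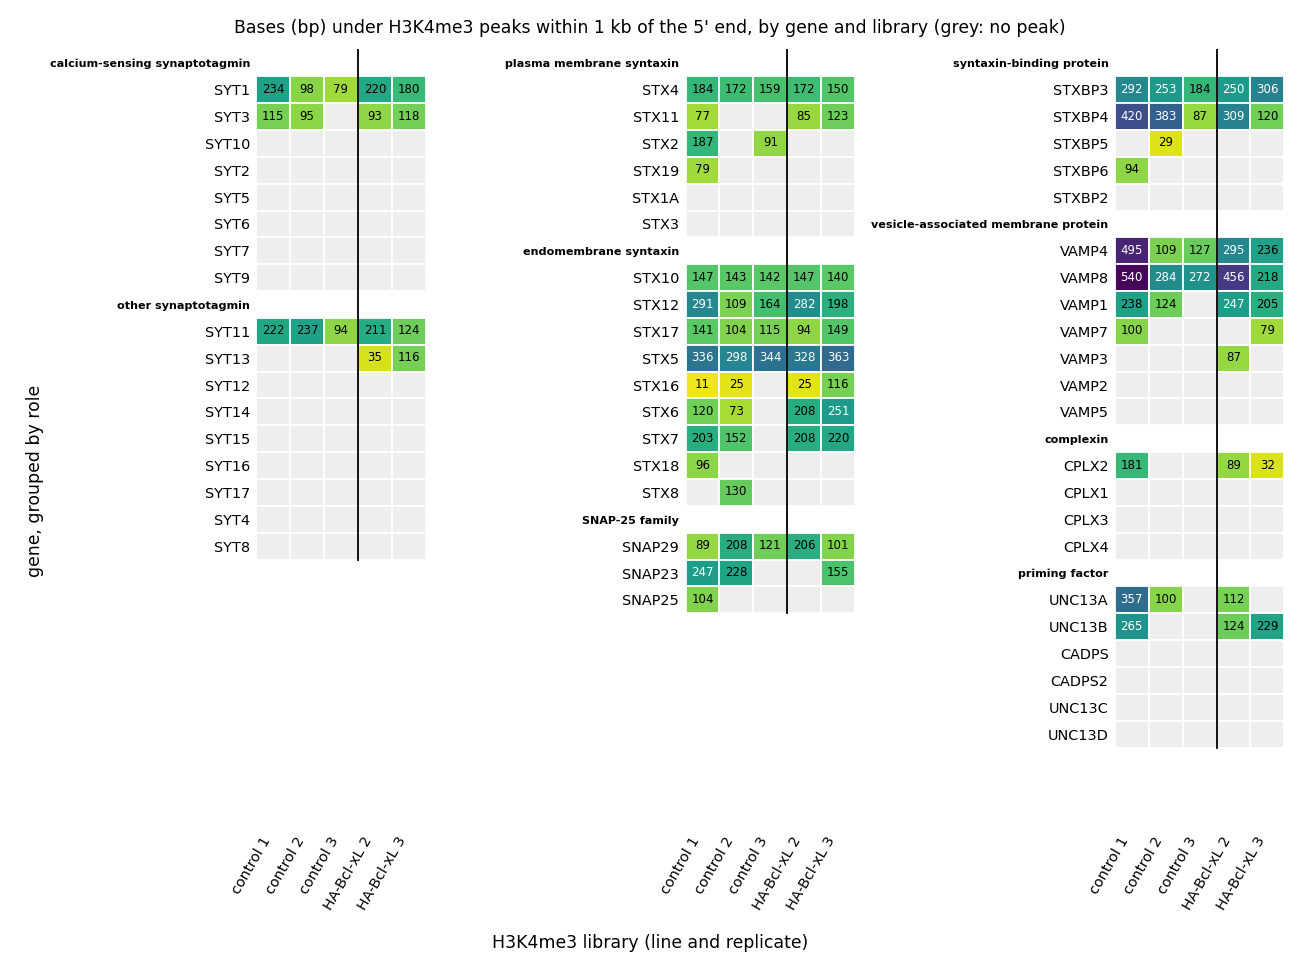
Each row is a gene, grouped by role, and each column an H3K4me3 library, with control replicates left of the vertical line and HA-Bcl-xL replicates right of it. Numbers and colours give the bases (bp) under peaks within 1 kb of the start, and grey cells have no peak (2 of the 59 genes are not drawn): endomembrane syntaxins are filled in most rows, while most synaptotagmin rows are empty.

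The peaks were small. The 151 promoter peaks at the fusion genes had a median width of 121 bp (74 to 391 bp) and a median of 11 fragments at the summit (3 to 29). Their median percentile rank by the authors' p within their own lists was 51.95, where 100 is the strongest peak of a list. Of the 151 summits, 94 lay downstream of the start, 60 in introns, 29 in UTR exons and 57 outside the gene. A gene called unmarked here can therefore carry a mark too weak for peak calling at this depth.

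Synaptotagmins, the calcium sensors and their relatives, were mostly without a peak: 4 of 17 had a promoter peak in at least 1 library, where 48.2% of all genes did, and 13 had none. Of the 8 that bind calcium and act in release, SYT1 was marked in all 5 libraries and SYT3 in 4, and SYT2, SYT5, SYT6, SYT7, SYT9 and SYT10 in none. Of the 9 others, SYT11 was marked in all 5 and SYT13 in 2, and SYT4, SYT8, SYT12, SYT14, SYT15, SYT16 and SYT17 in none. SYT1 encodes the fast calcium sensor of synaptic and dense-core vesicles and starts at chr12:79257773 on the plus strand (GRCh37). Its promoter held 234, 98 and 79 bp under peaks in the control libraries (replicates 1 to 3, in order throughout) and 220 and 180 bp in the HA-Bcl-xL libraries (replicates 2 and 3). The 2 HA-Bcl-xL values lay inside the control range. The strongest peak had its summit 670 to 694 bp downstream of the start, in an intron, at 29, 12, 12, 19 and 25 fragments and percentile ranks of 94.29, 39.32, 55.12, 84.74 and 93.08 in the same order. A second and weaker peak at or just upstream of the start was called in control replicate 1 and in both HA-Bcl-xL libraries. A further site lay 181784 to 182844 bp downstream of the start, within 1 kb of other annotated SYT1 starts. That site had peaks in all 5 libraries, 86 to 355 bp wide and at ranks of 12.38 to 68.22. The stretch below is the DNA that lay under the strongest SYT1 promoter peak in all 5 libraries. It lies at chr12:79258396-79258514 on the plus strand, with the 79 shared bases in capitals and 20 flanking bases on each side. It is shown because SYT1 was the only one of the 7 core release genes listed below with a promoter peak in every library.
SYT1: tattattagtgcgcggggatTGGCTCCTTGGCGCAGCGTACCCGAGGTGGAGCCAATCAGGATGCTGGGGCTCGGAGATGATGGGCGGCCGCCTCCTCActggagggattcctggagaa

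SYT11, a relative that does not bind calcium, had 222, 237 and 94 bp under peaks in the control libraries and 211 and 124 bp in the HA-Bcl-xL libraries, and the groups overlapped. The summits lay at positions -380 to -254 relative to the start, on the side of the neighbouring gene GON4L, whose own start is within 1 kb. SYT3, a calcium sensor outside the synaptic vesicle, had 115, 95, 0, 93 and 118 bp, with summits 497 to 523 bp downstream and ranks of 54.99 to 94.2. SYT5 had no peak within 1 kb but a peak in all 5 libraries just beyond it, beginning 1019 bp or more downstream of the start. It covered 163, 142, 86, 101 and 182 bp, on 20, 10, 9, 10 and 17 fragments. SYT7, a slow calcium sensor of dense-core vesicles, had its nearest peak of any library 6863 bp from its start, and SYT4 had it 127829 bp away.

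Syntaxins, the target-membrane SNAREs, had a promoter peak in at least 1 library at 13 of 16 genes (all genes: 48.2%). All 9 syntaxins of the Golgi, endosomes, lysosomes and endoplasmic reticulum had one, and 4 of them (STX5, STX10, STX12 and STX17) had one in every library (all genes: 21.3%). Among the 7 plasma membrane syntaxins, STX4 was marked in every library, STX11 in 3, STX2 in 2 and STX19 in 1, and STX1A and STX3 in none. The difference between these lists is given as counts and was not tested. STX5, the syntaxin of transport from the endoplasmic reticulum to the Golgi, had 336, 298 and 344 bp under peaks in the control libraries and 328 and 363 bp in the HA-Bcl-xL libraries, so the replicates differed little and the groups overlapped. A peak upstream of the start and another 252 to 268 bp downstream of it were called in all 5. The stretch of the upstream peak shared by all 5 libraries is shown because it stands just upstream of the start, at chr11:62599523-62599669 on the minus strand, with the 107 shared bases in capitals and flanks in lower case.
STX5: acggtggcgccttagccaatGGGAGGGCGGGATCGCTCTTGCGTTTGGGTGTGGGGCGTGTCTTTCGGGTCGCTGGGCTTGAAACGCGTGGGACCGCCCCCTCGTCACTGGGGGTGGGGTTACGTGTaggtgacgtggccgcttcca

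It contains the letters GGGCGG, the GC box bound by Sp1-family factors, inside the shared bases. STX10, a syntaxin of the trans-Golgi network, had peaks of almost the same width in every library, 147, 143 and 142 bp in control cells and 147 and 140 bp in HA-Bcl-xL cells. Their summits lay within 26 bp of the start on 20 to 29 fragments, and the start of IER2 on the other strand lies within 1 kb. STX4, the plasma membrane syntaxin that serves exocytosis in many cell types, had 184, 172 and 159 bp in control cells and 172 and 150 bp in HA-Bcl-xL cells, again overlapping. Its strongest peak within 1 kb lay 621 to 656 bp downstream of the start. STX12, an endosomal syntaxin, had 291, 109, 164, 282 and 198 bp with the main summit 1 to 85 bp downstream. STX17, the syntaxin of autophagosomes, had 141, 104 and 115 bp in control cells and 94 and 149 bp in HA-Bcl-xL cells. The STX17 peak of control replicate 3 had its summit at 722 bp and those of the other libraries at 483 to 598 bp, and no single base was under peaks of all 5.

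Endomembrane syntaxins short of 5 libraries were STX6, STX7 and STX16 (4 each) and STX8 and STX18 (1 each). STX7 had 203, 152, 0, 208 and 220 bp and STX6 had 120, 73, 0, 208 and 251 bp, with the 3 control libraries first and the 2 HA-Bcl-xL libraries last. In both genes the HA-Bcl-xL libraries exceeded all control libraries, and the control library at 0 was the shallow replicate 3. In a limma fit over the 8313 promoters with a peak in at least 2 libraries (50 bases added), 0% had an adjusted p under 0.05. STX6, with the smallest unadjusted p of the 26 fusion genes fitted, had a log2 difference of 1.29 (SE 0.49) and an adjusted p of 0.798. STX2, with the next smallest, was lower in HA-Bcl-xL cells at -1.41 (SE 0.615), and STX11 was at 0.997 (SE 0.445). STX7 had a difference of 0.78 (SE 0.61). Of the 26, 14 were higher and 12 lower in HA-Bcl-xL cells. STX16 had 11, 25, 0, 25 and 116 bp. The strongest peaks of STX6 and STX16 straddled the edge of the window, with summits at 982 to 1056 bp and 999 to 1075 bp, so in the control libraries their bases within 1 kb are parts of peaks. The HA-Bcl-xL libraries also had whole peaks inside the window: at STX6 one of 81 bp in replicate 2 and one of 118 bp in replicate 3, and at STX16 one of 91 bp on the start in replicate 3. STX8 had 130 bp in control replicate 2, and STX18 had 96 bp in control replicate 1. Among plasma membrane syntaxins, STX11 had 77, 0, 0, 85 and 123 bp, STX2 had 187, 0, 91, 0 and 0 bp, and STX19 had 79 bp in control replicate 1 alone.

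Of the syntaxin-binding proteins, STXBP3 and STXBP4 were marked in all 5 libraries, STXBP5 and STXBP6 in 1 each, and STXBP2 in none. STXBP3 (Munc18c), the widely expressed partner of syntaxin-4, had 292, 253 and 184 bp under peaks in control cells and 250 and 306 bp in HA-Bcl-xL cells. The peak lay wholly downstream of the start, with summits at 654 to 794 bp in an intron, at ranks of 57.22 to 97.27, the lowest in control replicate 3. The 184 bases under peaks of all 5 libraries are shown in capitals with their flanks, at chr1:109289917-109290140 on the plus strand, as the longest shared stretch among the 12 genes.
STXBP3: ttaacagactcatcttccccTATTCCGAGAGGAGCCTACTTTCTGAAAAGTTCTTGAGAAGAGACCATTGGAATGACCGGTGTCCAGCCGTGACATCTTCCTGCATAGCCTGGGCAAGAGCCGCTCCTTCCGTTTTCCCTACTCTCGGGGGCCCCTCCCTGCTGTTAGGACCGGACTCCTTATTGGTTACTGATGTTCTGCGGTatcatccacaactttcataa

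STXBP4, which binds syntaxin-4 in insulin-responsive cells, had 420, 383, 87, 309 and 120 bp, a wide spread within each line, and shares its promoter region with COX11. STXBP5 and STXBP6, which hold syntaxins in complexes without a vesicle SNARE, had 29 bp in control replicate 2 and 94 bp in control replicate 1.

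VAMP8, the vesicle SNARE of late endosomes and of secretory granules in exocrine and blood cells, ranked highest of the 59 by mean percentile rank (92.76). It had 540, 284 and 272 bp under peaks in control cells and 456 and 218 bp in HA-Bcl-xL cells. The main peak sat on the start, with summits 7 to 21 bp downstream, on 29, 17, 15, 21 and 20 fragments and with deposited fold enrichments of 16.7, 10.5, 10.1, 13.0 and 12.3 in the same order. GGCX begins within 1 kb on the other strand, and a peak between such starts cannot be given to 1 gene. VAMP4, a trans-Golgi SNARE, had 495, 109, 127, 295 and 236 bp, but its peaks lay at different places in different libraries, with summits from -683 to 916 bp. VAMP1, a neuronal relative of VAMP2, had 238, 124, 0, 247 and 205 bp. VAMP7 had a peak in control replicate 1 (100 bp) and HA-Bcl-xL replicate 3 (79 bp); it lies in a region that X and Y share, so its fragments cannot be placed on 1 copy. VAMP3 had 87 bp in HA-Bcl-xL replicate 2 alone, and VAMP2 and VAMP5 had none within 1 kb.

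VAMP2, the main vesicle SNARE of regulated release, was nevertheless marked in every library further into the gene. A peak 1066 bp or more downstream of its start covered 90, 82 and 83 bp in control cells and 82 and 74 bp in HA-Bcl-xL cells, on 12, 8, 7, 10 and 7 fragments. It lies in an intron, within 1 kb of the starts of shorter transcripts 598 and 614 bp downstream. Part of the stretch under peaks of all 5 libraries is shown as evidence of how narrowly the 5 calls coincided, at chr17:8065689-8065769 on the minus strand, with shared bases in capitals.
VAMP2: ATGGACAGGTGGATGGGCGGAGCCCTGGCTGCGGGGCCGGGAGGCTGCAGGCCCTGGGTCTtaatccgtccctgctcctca

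In the SNAP-25 family, SNAP29, which works with syntaxin-17 in autophagosome fusion, was marked in all 5 libraries with 89, 208, 121, 206 and 101 bp. SNAP29 shares the region with PI4KA, and its peaks stood upstream of the start in some libraries and downstream in others. SNAP23, the widely expressed form, had 247, 228, 0, 0 and 155 bp. SNAP25 had 1 peak of 104 bp in control replicate 1, with the summit 10 bp from the start on 4 fragments at a rank of 5.03. Elsewhere in SNAP25, control replicate 2 had a peak of 83 bp at 47635 bp and HA-Bcl-xL replicate 3 a peak of 76 bp at 45762 bp, both within 1 kb of other transcript starts, and control replicate 3 a peak of 98 bp at 9472 bp. The 4 peaks lay at different places and ranked 4.68 to 9.05 in their lists.

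Of 4 complexins and 6 priming factors, 0 were marked in all 5 libraries (all genes: 21.3%). In at least 1 library 1 complexin and 2 priming factors were marked (all genes: 48.2%). These lists are short and were not tested. CPLX2 had 181, 0, 0, 89 and 32 bp, and CPLX1, CPLX3 and CPLX4 had no peak. UNC13A (Munc13-1) had 357, 100 and 0 bp in control cells and 112 and 0 bp in HA-Bcl-xL cells, with peaks at the start or 585 to 710 bp downstream. UNC13B had 265, 0, 0, 124 and 229 bp. CADPS, which primes dense-core vesicles, CADPS2, UNC13C and UNC13D had no promoter peak.

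Of the core genes of regulated release, 7 are described. SYT1 had a promoter peak in 5 libraries, UNC13A in 3, SNAP25 in 1, and STX1A, VAMP2, CPLX1 and CADPS in none. Counted at any transcript start, SNAP25 had peaks in 3 libraries and VAMP2 in 5. The nearest peak of any library was 18553 bp from the start of STX1A, 44197 bp from that of CPLX1 and 511334 bp from that of CADPS. Across the 59 genes, 21 had no H3K4me3 peak in any library anywhere in the gene or 2.5 kb before it (all genes: 36.3%). They included CADPS, CPLX1, CPLX3, CPLX4, STX1A, STXBP2, SYT2, SYT4, SYT6, SYT7, SYT8, SYT9, SYT10, SYT12, SYT15, SYT16, SYT17, UNC13C, UNC13D and VAMP5. The 250 bases before the starts of STX1A and SYT4 are shown because these secretory genes had no peak although their sequences differ greatly in CG pairs, which are in capitals. The coordinates are chr7:73134003-73134252 and chr18:40857501-40857750, both on the minus strand.
STX1A: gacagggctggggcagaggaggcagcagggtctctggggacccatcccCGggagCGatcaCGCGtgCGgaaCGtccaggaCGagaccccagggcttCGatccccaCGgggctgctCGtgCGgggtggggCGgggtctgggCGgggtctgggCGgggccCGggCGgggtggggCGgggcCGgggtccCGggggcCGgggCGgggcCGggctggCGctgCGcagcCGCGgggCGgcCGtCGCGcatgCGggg
SYT4: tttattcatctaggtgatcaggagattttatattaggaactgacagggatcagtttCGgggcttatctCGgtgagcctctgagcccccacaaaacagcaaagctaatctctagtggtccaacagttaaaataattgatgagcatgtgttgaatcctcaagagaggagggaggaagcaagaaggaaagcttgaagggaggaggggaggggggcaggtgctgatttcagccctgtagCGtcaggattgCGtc

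The 2 sequences hold 31 and 4 CG pairs and have a G+C content of 80.8% and 48%. Over the window within 1 kb of the start, the median ratio of observed to expected CpG was 0.66 in the 12 genes with peaks in all 5 libraries, 0.67 in the 21 with peaks in 1 to 4, and 0.55 in the 26 with none. Over all genes of the same classes it was 0.69, 0.71 and 0.36, so the unmarked fusion genes had a higher median than unmarked genes in general. Of the 32 fusion genes with a ratio of at least 0.6, 9 were marked in all libraries and 23 in at least 1, where 31.7% and 71.7% of all genes of that class were. Of the 27 below it, 3 and 10 were marked, where 10.2% and 22.9% of all such genes were. The median G+C content of the fusion genes was 53.47%, 56.77% and 61.24% in the classes with 5, 1 to 4 and 0 libraries, and that of all genes was 54.87%, 57.97% and 52.82%. The unmarked class thus had the highest median among the fusion genes and the lowest among all genes. With all genes split into 10 equal bins by G+C, none of the 4 fusion genes in the richest bin, CPLX1, SYT7 and VAMP2 among them, had a promoter peak, where 47.1% of all genes in that bin had one in at least 1 library and 9.83% in all 5. In bin 4 the share in all 5 was 35.1% of all genes, and 3 of 6 fusion genes. The part of G+C content in these counts was not tested.

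**Figure D3:**
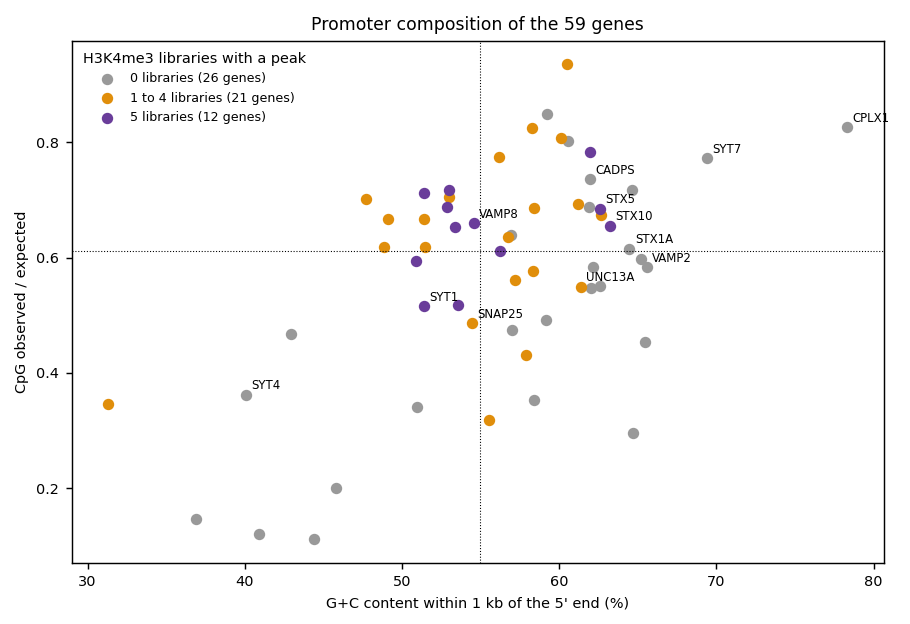
Each point is 1 of the 59 fusion genes, placed by the G+C content (%) and the observed to expected CpG ratio within 1 kb of its start and coloured by the number of H3K4me3 libraries with a promoter peak; dotted lines are the medians of all genes. The 12 genes marked in all libraries lie between 50.92 and 63.22% G+C, and the 26 unmarked genes spread from 36.88 to 78.31%.

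Motifs were searched on both strands, in 300 bases (250 before to 50 after the start) and in 1 kb either side. The cyclic AMP response element TGACGTCA, in capitals below, was found in the 300 bases of STX12 and STXBP3 (3.39% of the 59 genes, against 2.28% of all), both marked in all 5 libraries. These 250 bases before each start lie at chr1:28099480-28099729 and chr1:109289046-109289295 on the plus strand.
STX12: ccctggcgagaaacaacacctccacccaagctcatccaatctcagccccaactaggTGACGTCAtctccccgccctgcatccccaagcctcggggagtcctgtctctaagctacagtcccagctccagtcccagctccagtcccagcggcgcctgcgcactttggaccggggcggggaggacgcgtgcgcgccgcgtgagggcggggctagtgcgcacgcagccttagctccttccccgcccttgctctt
STXBP3: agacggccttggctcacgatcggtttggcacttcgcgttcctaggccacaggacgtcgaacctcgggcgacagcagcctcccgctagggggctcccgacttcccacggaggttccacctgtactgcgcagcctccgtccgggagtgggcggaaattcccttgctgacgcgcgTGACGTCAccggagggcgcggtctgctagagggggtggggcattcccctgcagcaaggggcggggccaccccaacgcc

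The RE1 element, bound by the neuronal gene repressor REST, was searched as TTCAGCACC, 2 free bases and GGACAG with at most 3 mismatches. It was found within 1 kb of the start in 10 genes (16.9%, against 10.8% of all) and within the 300 bases in 1.69% (1.3%). SYT4 held it with 0 mismatches at chr18:40857262-40857278, 222 bp after its start, SYT5 with 1 at chr19:55691572-55691588 and CADPS with 2 at chr3:62861969-62861985, and the other 7 held 3 each. The matches are printed in the direction of each gene, with the 2 free bases in lower case. None of these 3 genes had a peak within 1 kb, and a match describes letters only. Among all 10 genes with a match were 2 of the 12 marked in every library (STX4 and STX17) and 5 of the 26 with no promoter peak.
SYT4: TTCAGCACCtcGGACAG
SYT5: ATCAGCACCcgGGACAG
CADPS: TTCAGCACGttGGCCAG

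In the 300-base window the GC box GGGCGG was present in 62.7% of the fusion genes (all genes: 52.2%), the NRF1 element GCGCANGC in 20.3% (13.8%), the TATA box TATAAA in 5.08% (10.9%) and the ETS element CCGGAAG in 5.08% (11.8%). Within 1 kb either side the shares were 89.8% (78.9%), 42.4% (33.6%), 44.1% (52.1%) and 27.1% (27.1%) in the same order, and the response element TGACGTCA was in 5.08% (3.89%). The TATA box was then in 6 of the 12 genes marked in every library and 11 of the 26 with no promoter peak. In the 300 bases it was in 0 of those 12 and 3 of those 26. Shares over all genes of these classes were not counted.

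The position of the mark was steady at some genes and not at others. At 9 of the 12 genes with peaks in every library, at least 1 base lay under peaks of all 5, or 15.3% of the 59, against 17.5% of all genes. At STX17, SNAP29 and VAMP4 no base did. Of the 12, 6 (VAMP8, STX5, STX10, STXBP4, SYT11 and SNAP29) had another protein-coding gene starting within 1 kb, as did 3 of the 26 genes without a peak. The share over all genes was not counted, so these counts do not set the fusion genes apart. A neighbour's peak inside the window also counts as a promoter peak of the fusion gene.

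**Figure D4:**
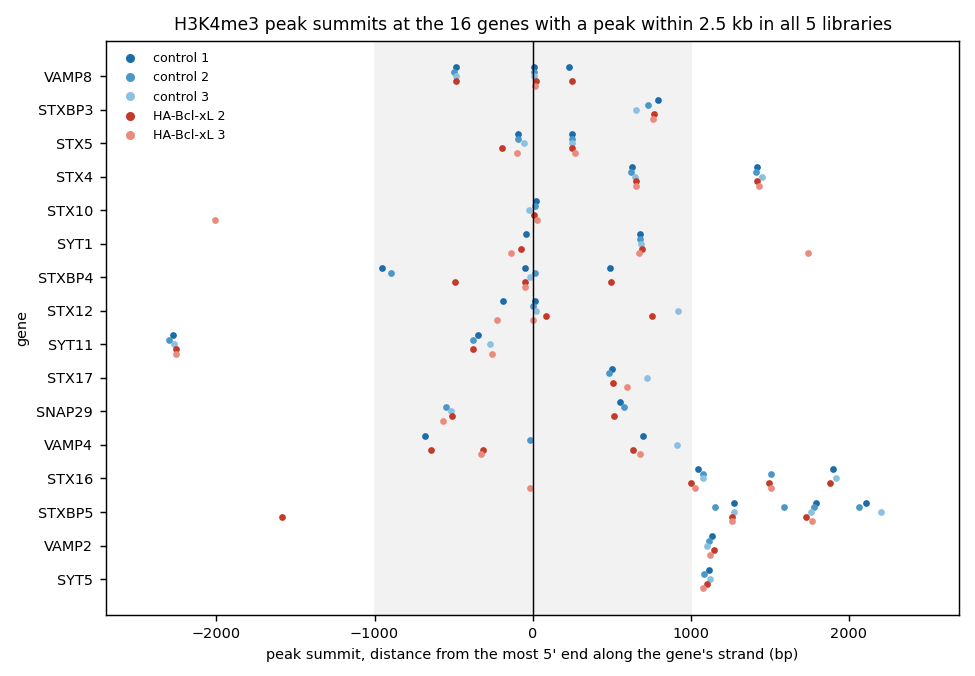
Points are the summits of H3K4me3 peaks at the 16 fusion genes with a peak within 2.5 kb in all 5 libraries, by distance from the start in bp along the gene's strand (0 is the start, shading is within 1 kb, colours are libraries). At STX10 and VAMP8 the main summits stack on the start, at SYT1, STX4 and STXBP3 they stack 621 to 794 bp downstream, and at VAMP4 they scatter.

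Starts of other annotated transcripts added 6 genes. With any transcript start allowed, 18 of the 59 had a peak within 1 kb in all 5 libraries (all genes: 26.5%) and 38 in at least 1 (all genes: 56.6%). At SNAP23 the starts 4073 to 4476 bp downstream had 392, 530 and 405 bp under peaks in control cells and 412 and 544 bp in HA-Bcl-xL cells, where its most 5′ start had a peak in 3 libraries. STX3, with no peak at its most 5′ start, had 93, 199, 0, 138 and 209 bp at starts 41920 to 42003 bp downstream. For these genes, then, the count at the most 5′ start does not describe the whole gene.

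The lines were compared next. With 1 line per condition, an effect of Bcl-xL overexpression cannot be told apart from other differences between the lines. The mean number of fusion genes with a promoter peak was 21 ± 7 (SD, n = 3) in control libraries and 23.5 ± 0.707 (SD, n = 2) in HA-Bcl-xL libraries. The difference of 2.5 genes was smaller than the pooled SD of 5.73. It was 6, above that SD, without control replicate 1 and -1 without control replicate 3. No fusion gene had peaks in all 3 control and neither HA-Bcl-xL library (all genes: 0.248%). One gene, SYT13, a synaptotagmin that does not bind calcium, had the reverse pattern, 1.69% of the 59 against 0.844% of all genes. It had 35 bp within the window in HA-Bcl-xL replicate 2 and 116 bp in replicate 3, and 0 in the 3 control libraries. The 2 peaks shared no base, with summits 1150 and 862 bp downstream on 6 and 8 fragments, and with at least 50 bp required in the window, or a -log10 q of at least 5, the count was 0.

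Width here means the bases under all peaks within 1 kb, summed also where peaks lay at different places. The bases under all peaks of a list ran from 1398 to 2843 kb between libraries, and each library was centred on its median. The log2 widths were tested with limma over the 4289 promoters with a peak in all 5 libraries. The adjusted p was under 0.05 for 0% of them, 0 promoters, and 210 had an unadjusted p under 0.05. Of the 12 fusion genes in the test none passed: 5 had higher and 7 lower values in HA-Bcl-xL cells, with a median log2 difference of -0.09 against -0.02 over all promoters. This tally turned with single libraries: without control replicate 3 it was 13 higher and 4 lower of 17 genes tested (median 0.15), and without HA-Bcl-xL replicate 3 it was 7 and 5 (median 0.16). With no centring it was 6 and 6 (median 0.04), and in none of these fits did a fusion gene pass. SYT1 had the smallest p of the 12, with a log2 difference of 0.58 (SE 0.41) and a Benjamini-Hochberg adjusted p of 0.988. STX12 and VAMP4 were at 0.32 (SE 0.43) and 0.35 (SE 0.48), and STXBP4, VAMP8 and STX4 at -0.45 (SE 0.55), -0.26 (SE 0.42) and -0.22 (SE 0.40), all with the same adjusted p. In none of these 6 genes did the difference exceed 2 standard errors, and at none of the 12 did both HA-Bcl-xL libraries lie above, or both below, all 3 control libraries. These p-values measure the spread between the libraries used, and a miss does not show that widths were equal.

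**Figure D5:**
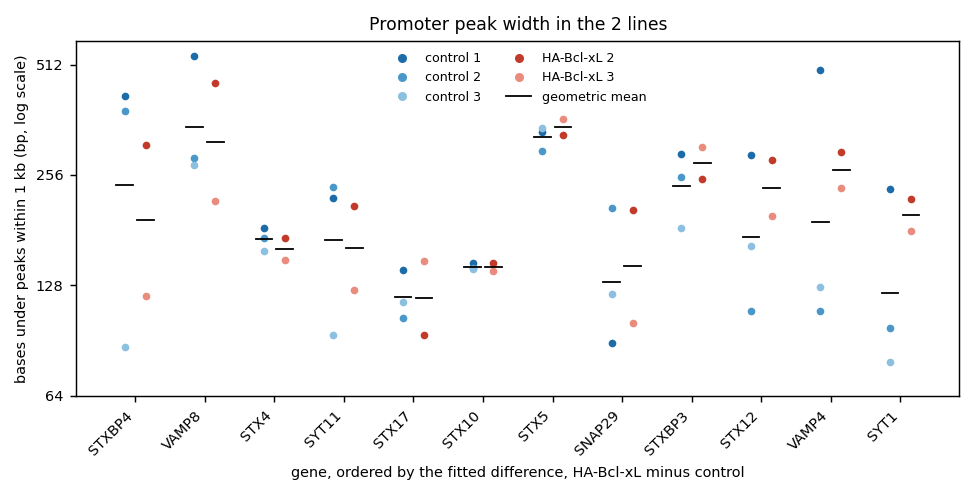
Points are the bases under peaks within 1 kb of the start (bp, log2 scale) in each H3K4me3 library for the 12 fusion genes tested, with control libraries in blue and HA-Bcl-xL libraries in red; black bars are geometric means. At none of the 12 genes do both red points lie above, or both below, all 3 blue points, and STX10 varies least, from 140 to 147 bp.

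Other genes of the vesicle fusion pathway were counted in the same way, from 5 lists of 70 genes that hold none of the 59. Of the 70, 21 (30%) had a promoter peak in all 5 libraries and 45 (64.3%) in at least 1, beside 21.3% and 48.2% of all genes. Among 11 other SNAREs, which act mainly between the endoplasmic reticulum, Golgi and endosomes, 8 were marked in all libraries (BET1, BNIP1, GOSR1, GOSR2, SEC22B, USE1, VTI1A and VTI1B) and all 11 in at least 1. Of 9 genes for SNARE disassembly and Sec1/Munc18 function, 4 were marked in all libraries (NAPB, SCFD1, VPS33B and VPS45) and all 9 in at least 1, and SCFD2 had peaks in the 3 control libraries alone. In the exocyst, which tethers vesicles to the plasma membrane, 5 of 9 were marked in all libraries. Of genes closer to regulated release, 3 of 25 active zone and RAB3 or RAB27 effector genes (RAB3A, RAB3D and RAB27A) and 1 of 16 vesicle membrane genes (SNAPIN) had peaks in every library, and 10 of 25 (40%) and 8 of 16 (50%) had them in at least 1. Members marked in part of the libraries were SYTL1 and SV2A (4 each), PPFIA3 (3), and RAB3B, ERC1, PPFIA1, SYP, SV2B and ESYT1 (2 each), among others, while RIMS1 to RIMS4, RPH3A, SYN1, SYN2 and SYN3 had none. Within 2.5 kb, 7 of the 25 had peaks in all 5 libraries (all genes: 25.6%). These lists were counted and not tested against each other, and lengths and CpG content of their promoters were not matched.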

How the data were processed

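CUT&RUN libraries were made with a ThruPLEX kit, per the labels' protocols. The sample and antibody labels give the mark as H3K4me3, although the series title spells it differently. The submitters' processing notes name bcl2fastq 2.20, Trimmomatic 0.36, Bowtie2 2.2.9, MACS2 2.1.1, deepTools 3.5.1 and hg19, without their settings or order, and duplicate treatment is not given in the sources used here. The files used here were narrowPeak lists deposited by the authors, 1 for each of 11 of the 12 labelled libraries, so these replicates were not pooled. Each deposited list gives, per peak, a score, a fold enrichment (a ratio) and -log10 p and -log10 q values. These were used to rank or filter peaks within a list. Fold and -log10 p were also solved for a whole number of fragments at the summit and a background, assuming that fold is (fragments + 1) / (background + 1) and p a Poisson tail. The fit was within 0.001 for 95.9 to 99.97% of peaks per list, and for 93.1% of peaks at the 59 genes no other whole number came within 0.01.

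Genes came from GENCODE release 44 on GRCh37 (20163 protein-coding entries, 27 repeated symbols dropped). Coordinates are 1-based. Sequences were read from the GRCh37 reference. For widths, log2 bases under peaks, centred on each library's median, were fitted in limma 3.58.1 (R 4.3.3), with Benjamini-Hochberg adjustment. The fit and the fragment solution were tested on simulated data. Python 3.11.15, numpy 2.4.6, scipy 1.17.1, pandas 2.3.3 and matplotlib 3.10.9 were used. Full values are given for genes with peaks in all 5 libraries, for genes marked in 1 line only, for core release genes (STX1A, SNAP25, VAMP2, SYT1, CPLX1, UNC13A and CADPS), and for the 3 smallest p of the width test in each direction. The genes and lists were chosen with earlier results of these data known. Settings also tried were peaks with -log10 q of 5 or more, lists cut to equal length, a 2.5 kb window, any transcript start, removal of peaks overlapping IgG peaks, at least 50 bp in the window, other filters (with 50 bases added), centring and regions for widths, the replicate number as a block, and omission of single libraries. The requirement of a base shared by all 5 libraries was added after seeing the data. Some genes and a sequence that these rules select are counted in totals or left out and are not reported here. PECAM1 had no entry in the annotation used.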

Additional observations from a re-analysis of the deposited data

Results flagged for a closer look

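Peaks at annotated starts other than the most 5′ one were outside the main count. At 5 genes such starts brought the number of H3K4me3 libraries with a peak within 1 kb to 5, with 0 IgG libraries: STX16 (5 libraries), SNAP23 (5), STXBP5 (5), VAMP2 (5) and SYT5 (5). They had 4, 3, 1, 0 and 0 libraries at their most 5′ start, in that order.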

How the results depend on the processing

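The count of genes with promoter peaks in every library ran from 8 to 18 over all settings. The count of genes marked in HA-Bcl-xL cells only, 1, became 0 with a -log10 q of at least 5, 2 (STX11 and UNC13B) with equal list lengths and 0 with at least 50 bp in the window. Leaving out each library gave 1 to 4, with 4 (CPLX2, STX11, SYT13 and UNC13B) without control replicate 1 and 2 (SYT13 and VAMP3) without HA-Bcl-xL replicate 3. Control-only genes numbered 0 to 1 when each library was left out, with STX2 without control replicate 2, and the difference in mean number of marked genes ran from -1, without control replicate 3, to 6, without control replicate 1. With any transcript start, 1 gene (STX6) had an IgG peak in place of 0. Replicate numbers 2 and 3 occur in both lines but nothing says that they pair libraries. With the replicate block limma called 13 promoters, none of the 12 genes among them, and SYT1 was at 0.833. Leaving out each library gave 0 to 9 called promoters, with 1 without control replicate 2, 3 without HA-Bcl-xL replicate 2 and 9 without HA-Bcl-xL replicate 3, and 0 fusion genes among them. The last 2 fits leave 1 HA-Bcl-xL library, which is assumed to vary like the controls. Width differences changed sign at SYT1 with a -log10 q of at least 5 (-0.329), at STXBP4 with equal list lengths (0.397) and at VAMP8 over merged regions (0.131). Leaving out each library gave -0.0225 (without control replicate 2) to 0.82 at VAMP4, -1.08 to 0.188 at STXBP4 and -0.745 to 0.225 at VAMP8, both positive only without HA-Bcl-xL replicate 3. SYT1 shrank to 0.0521 with equal list lengths and 0.0687 over merged regions, and rose to 0.892 within 2.5 kb. STX12 shrank to 0.0542 over merged regions. With single libraries left out, STX12 ran from 0.0172 (without control replicate 2) to 0.532 and STX4 from -0.387 (without control replicate 1) to -0.0777 (without control replicate 3). No centring moved the median of all promoters from -0.02 to 0.10. The cause of these changes was not tested. With summits on a median of 9 to 12 fragments per H3K4me3 library, weak peaks can miss the threshold.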
